A study of Rattus norvegicus with 9 samples.

Results

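Gene expression in the tibialis anterior (TIB), a fast muscle of the shin, was compared between phase 3 (P3) and phase 2 (P2) of prolonged fasting in male Sprague Dawley rats, on Affymetrix Rat Gene 1.0 ST arrays. The arrays were chosen by their labels, 3 from P2 rats and 3 from P3 rats, which are 6 of the 9 arrays of the series, with 1 array per rat. The other 3 arrays come from fed rats (Fed) and served for the estimate of the spread and for the genes that reverse. Fasted rats had no food, and their phase was read from the daily rate of body mass loss, which is slow and regular in P2 and faster in P3. P3 rats were killed on the day after this phase began, so the data describe its start. All rats were unmodified males of 1 strain, bought as young adults and fed a standard diet until the fast, and the labels give no age.

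Fasting passes through phases that differ in the fuel used. In P2, fatty acids from adipose tissue and ketone bodies made from them cover most of the energy need, and body protein is spared. In P3, which begins before fat stores are empty, muscle protein is broken down faster and its amino acids are burned or turned into glucose by liver and kidney. In muscle, the ubiquitin-proteasome system and autophagy carry out most of this breakdown. Their genes are known targets of FOXO factors and of the glucocorticoid receptor, whereas lipid oxidation genes answer to PPAR factors and to the coactivator PGC-1alpha.

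Values are log2 intensities of probe sets, already normalized between arrays, and a difference of 1 is a 2-fold change. Array medians lay between 5.801 and 5.90. The 6 defining markers of muscle fibres stood between 12.05 and 13.98 on all 9 arrays, near the top of the scale, in keeping with the label of the tissue. In a principal component analysis of the 6 arrays, 61.9% of the variance lay along component 1, on which P2 stood between -42.3 and -29.7 and P3 between 34.6 and 35.2. P2 1 stood apart from the other P2 rats, at 30.9 on component 2 beside -26.3 and -10.0. The counts without it are given where they move. In whole muscle, fewer cells of a type and less RNA per cell cannot be told apart. Nothing in the labels pairs the rats, and p-values measure the spread between these 9 rats.

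From P2 to P3, 4680 of 29215 probe sets changed, which is 16.0%, at an adjusted p under 0.05 in limma. Of these, 2483 were higher (8.50%) and 2197 lower (7.52%), and 480 and 463 of them by at least 2-fold. Counted over the 14506 genes with a symbol, 1647 were higher (11.4%) and 1515 lower (10.4%). Bright genes were called more often: among the 3965 genes with a mean of at least 8, 24.9% were higher and 20.3% lower. The median change over all genes was -0.02. The 3 P2 values and the 3 P3 values did not overlap for 4963 genes (34.2%), many of which did not pass the test. The largest changes in both directions belonged to genes of middle and high intensity, as the plot of change against level shows.

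**Figure D1:**
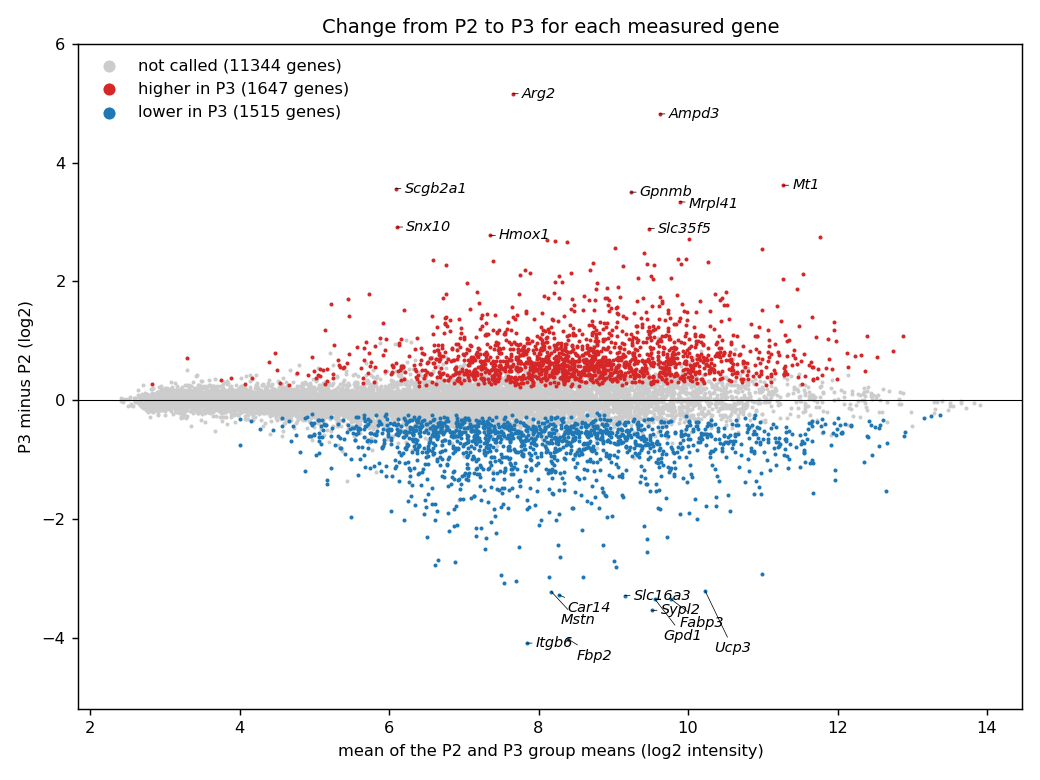
Difference between the P3 and P2 means on the log2 scale (y axis) against the mean of both groups (x axis, log2 intensity), 1 point per gene, with 3 rats per group. Red and blue points are the 1647 genes called higher and the 1515 called lower, and Arg2 at 5.16 and Itgb6 at -4.09 mark the ends.

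The largest rises included genes that handle nitrogen, metals and heme. Arg2, the mitochondrial arginase that splits arginine into ornithine and urea, had log2 intensities of 5.19, 5.16 and 4.88 in the P2 rats and 10.72, 10.43 and 9.57 in the P3 rats. All P3 rats lay far above all P2 rats, by 35.8-fold (5.16 ± 0.28 on the log2 scale, adjusted p = 8.49e-06), and the P2 rats lay at the level of the fed rats (4.82, 5.36 and 5.42). The P2 and fed values lie below the medians of their arrays, at dim intensities where arrays compress change, so the size of the fold is uncertain. Ampd3, an AMP deaminase that turns AMP into IMP and ammonia, had values of 7.10, 7.51 and 7.02 in the P2 rats and 12.03, 11.99 and 12.07 in the P3 rats. It rose 28.3-fold (4.82 ± 0.12, adjusted p = 5.90e-07) with almost no spread in P3. Mt1, one of the small metal-binding proteins called metallothioneins, stood at 9.64, 9.53 and 9.23 in the P2 rats and 13.00, 13.19 and 13.07 in the P3 rats. This was a rise of 3.62 ± 0.13 (adjusted p = 1.78e-06) above a P2 level that was already higher than in fed rats by 2.10, and its other probe set rose by 3.77 ± 0.16. Mt2A, the related metallothionein, rose by 2.75 ± 0.18, and its other probe set by 3.32 ± 0.21. The probe sets of these near-identical genes may detect each other's RNA, so their separate sizes are uncertain.

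Metallothionein promoters are known for metal response elements, short sites that bind the zinc sensor MTF1. The promoter of Mt1 is shown because Mt1 and Mt2A are a family among the largest rises, and the capitals mark every match to the element's core TGCNCNC on either strand. The 250 bases before the start of Mt1 lie at chr19:10832976-10833225 (GRCr8, RefSeq, minus strand, 5′ to 3′).
Mt1: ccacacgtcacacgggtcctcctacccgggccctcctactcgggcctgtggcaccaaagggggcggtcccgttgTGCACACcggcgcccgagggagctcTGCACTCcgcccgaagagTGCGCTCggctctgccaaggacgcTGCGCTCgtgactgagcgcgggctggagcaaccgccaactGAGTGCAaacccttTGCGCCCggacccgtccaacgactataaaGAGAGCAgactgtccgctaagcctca
They hold 7 matches. Of 11950 measured genes with a RefSeq promoter, 0.0167% have as many or more in these 250 bases, Mt1 itself included, and the median is 0. A match is a description of the letters and not a site of binding. Mtf1 itself did not pass the test, with a difference of 0.27 ± 0.14 (adjusted p = 0.274). Of the 16 measured genes of metallothioneins and zinc transport, 5 were higher and 3 lower, among them the zinc exporters of intracellular vesicles Slc30a2 (1.19), Slc30a5 (0.70) and Slc30a4 (0.62) on the higher side.

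Heme, membrane traffic and secretion were represented among the other large rises. Hmox1, the heme oxygenase that opens the heme ring, had values of 5.90, 6.08 and 5.91 in the P2 rats and 8.93, 8.72 and 8.56 in the P3 rats, with no overlap and a rise of 2.77 ± 0.17 (adjusted p = 1.86e-05). Scgb2a1, of the secretoglobin family, stood at 4.37, 4.13 and 4.42 in the P2 rats and 7.59, 8.66 and 7.36 in the P3 rats. The P3 rats differed among themselves by more than 1, and all lay above the P2 rats. Snx10, a sorting nexin of endosomes, was near the lower end of the scale in P2 and rose by 2.92 ± 0.32 to between 7.12 and 8.22. Gpnmb, a glycoprotein of lysosomes and melanosomes, rose by 3.50 ± 0.19 to values of 10.64, 11.35 and 10.97. Macrophages are known to express it, and none of the 12 macrophage markers passed limma's test, nor did any reach an unadjusted p under 0.05 or pass the Tukey test of the methods. Their summed linear intensity was 1458 to 2077 in P2 and 1269 to 2156 in P3. The part of macrophages in the rise of Gpnmb was not tested. Mrpl41, a protein of the mitochondrial ribosome, rose by 3.34 ± 0.13, and its other probe set by 3.35 ± 0.13. Both probe sets had nearly the same value on every array, so the other one is not separate support. The 15 genes with the largest rises also included Slc35f5 (2.89), Tmem140 (2.72), Tmem229b (2.69), Agfg2 (2.68), Ctdspl (2.66) and Trim37 (2.56), a ubiquitin ligase. By the rule that chose the leading genes, their P2 and P3 rats do not overlap.

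The genes that fell most included enzymes and carriers of fuel use, membrane channels and an integrin. Itgb6, an integrin subunit, had log2 intensities of 9.10, 10.27 and 10.29 in the P2 rats and 5.49, 6.29 and 5.60 in the P3 rats, a 17.1-fold fall without overlap (-4.09 ± 0.34, adjusted p = 7.20e-05). Fbp2, the muscle fructose-bisphosphatase that lets glycogen be made from lactate, stood at 9.98, 10.94 and 10.29 in the P2 rats and 6.25, 6.82 and 6.07 in the P3 rats. It fell by 4.02 ± 0.29 (adjusted p = 3.62e-05), and the P2 rats lay around the fed level (9.65, 10.28 and 10.30). Fabp3, the muscle fatty acid binding protein that carries fatty acids through the cytosol, had values of 11.07, 11.91 and 11.37 in the P2 rats and 8.24, 8.20 and 7.85 in the P3 rats. All P3 rats were more than 2 below all P2 rats, and the fall was 3.35 ± 0.20 (adjusted p = 1.68e-05). Gpd1, the glycerol-3-phosphate dehydrogenase that links glycolysis to lipid synthesis, fell by 3.35 ± 0.11. Slc16a3, the transporter through which muscle releases lactate, had values of 10.90, 10.65 and 10.85 in the P2 rats and 7.16, 7.84 and 7.52 in the P3 rats and fell by 3.29 ± 0.16 (adjusted p = 5.42e-06). Car14, a carbonic anhydrase of the muscle membrane, fell by 3.28 ± 0.14, Aqp4, the water channel of fast fibres, by 2.98 ± 0.18, and Slc25a25, a mitochondrial ATP-Mg/phosphate carrier, by 2.95 ± 0.25.

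Regulators of muscle growth and identity were among the strongest falls. Mstn, myostatin, the secreted inhibitor of muscle growth, had values of 10.40, 9.13 and 9.83 in the P2 rats and 5.94, 7.55 and 6.18 in the P3 rats. Both groups were wide, without overlap, and the fall was 3.23 ± 0.43 (adjusted p = 0.000919). Mstn did not pass the analysis of variance and Tukey test of the methods, at a p under 0.001 (adjusted p = 0.00183). Myod1, the myogenic transcription factor, stood at 9.26, 9.40 and 8.57 in the P2 rats and 5.66, 6.31 and 6.02 in the P3 rats, a fall of 3.08 ± 0.32 (adjusted p = 0.000265) from a P2 level close to that of the fed rats (8.70, 8.93 and 9.86). Clcn1, the chloride channel that sets the resting conductance of the fibre, had values of 9.70, 9.55 and 9.63 in the P2 rats and 6.65, 6.74 and 6.56 in the P3 rats. These are tight groups about 3 apart on the log2 scale (-2.98 ± 0.08, adjusted p = 5.90e-07). Sypl2, a membrane protein of the triad, fell by 3.54 ± 0.30, and its other probe set by 3.06 ± 0.21. Ky, a protein that muscle needs for its upkeep, fell by 3.05 ± 0.13. Pgam2, the muscle phosphoglycerate mutase, fell by 2.94 ± 0.09, and Ucp3, which also reverses, by 3.21 ± 0.38.

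**Figure D2:**
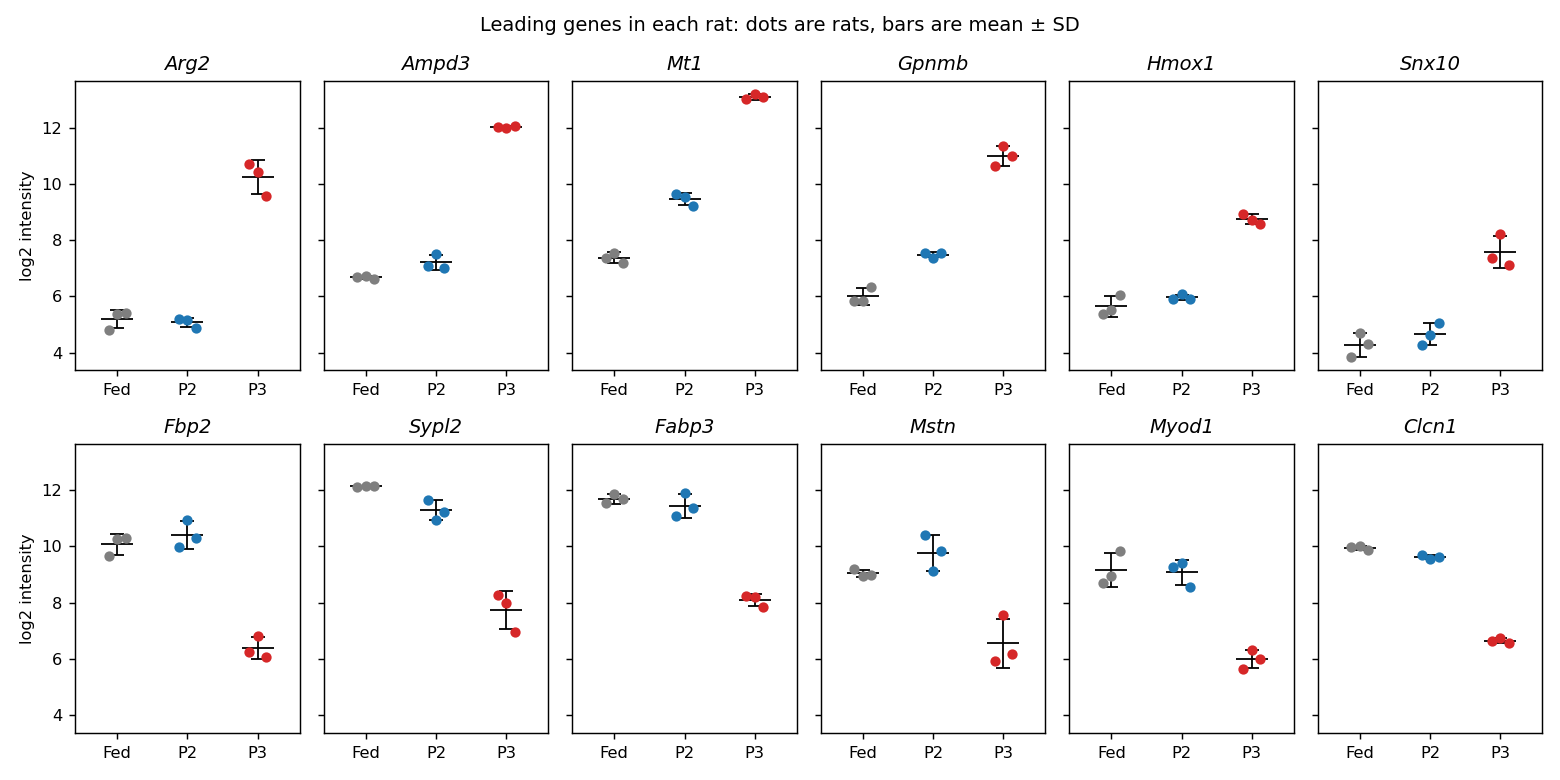
Log2 intensity (y axis) of 6 genes with large rises and 6 with large falls from P2 to P3, in Fed, P2 and P3 (x axis), with 1 dot per rat and the mean ± SD of 3 rats. For all 12 genes the P2 and P3 dots do not overlap, and for Arg2, Hmox1, Fbp2 and Myod1 the P2 dots lie in or next to the range of the fed rats.

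Most genes of fatty acid oxidation were lower in P3. Gene lists are given by their counts, to be read beside the 11.4% of all genes that were higher and the 10.4% that were lower, or 24.9% and 20.3% of the bright ones. Of 21 measured genes of fatty acid beta-oxidation, the mitochondrial pathway that shortens fatty acids, 19 were lower and 0 higher, with a median of -0.85. Cpt1b, the muscle carnitine palmitoyltransferase that lets fatty acids into mitochondria, had values of 10.76, 11.16 and 10.80 in the P2 rats and 10.04, 10.22 and 10.27 in the P3 rats. Every P3 rat lay below every P2 rat, and the fall of 0.73 ± 0.11 (adjusted p = 0.00244) brought the level just below that of the fed rats (10.35, 10.45 and 10.36). Slc25a20, the carnitine-acylcarnitine carrier, fell by 1.42 ± 0.11, Hadh, a hydroxyacyl-CoA dehydrogenase, by 1.38 ± 0.11, Eci2, an enoyl-CoA isomerase, by 1.60 ± 0.13, and Decr1, the dienoyl-CoA reductase needed for unsaturated fatty acids, by 1.29 ± 0.16. In P2 against Fed the same list had a median of 0.18, with 5 members higher and 0 lower.

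Among 17 PPAR-responsive genes, 11 were lower and 2 higher (median -1.15). Angptl4, an inhibitor of lipoprotein lipase, fell by 2.70 ± 0.18, and Acot2, a mitochondrial acyl-CoA thioesterase, by 1.63 ± 0.32. Plin5, a lipid droplet protein that tethers droplets to mitochondria, fell by 1.27 ± 0.23, and Plin2, the droplet coat protein, rose by 0.85 ± 0.18 (adjusted p = 0.0123). Pdk4, the kinase that shuts pyruvate dehydrogenase, did not pass the test: its values of 13.08, 13.31 and 13.25 in the P2 rats and 12.82, 12.67 and 12.85 in the P3 rats differed by -0.43 ± 0.18 (adjusted p = 0.157). The P3 rats lay below the P2 rats, and the difference passed the test without Fed 1 (adjusted p = 0.0401) and with the 6 fasted rats alone (adjusted p = 0.0276). Of the 12 genes of lipid droplets and lipolysis, 6 were lower and 1 higher. Lipe, the hormone-sensitive lipase, fell by 1.32 ± 0.09, and Mgll, the monoglyceride lipase, by 1.21 ± 0.12. Pnpla2, the triglyceride lipase ATGL, differed by 0.25 ± 0.13 (adjusted p = 0.281), and passed the test without P2 2 (adjusted p = 0.0385). Fatty acid activation split by isoform, with Acsl1 and Acsl6 lower by 1.78 ± 0.19 and 1.75 ± 0.08 and Acsl4 higher by 1.24 ± 0.08.

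Genes of carbohydrate use fell as well. Of 13 measured genes of glycolysis and glucose uptake, 10 were lower and 1 was higher (median -0.78). Ldha, the muscle lactate dehydrogenase, fell by 1.54 ± 0.06, Tpi1 by 1.18 ± 0.08 and Pgk1 by 1.14 ± 0.10, all enzymes of the glycolytic path. The member that rose was Hk2, the hexokinase of insulin-sensitive tissue, with values of 9.21, 10.06 and 9.72 in the P2 rats and 10.88, 10.83 and 10.53 in the P3 rats and a change of 1.08 ± 0.19 (adjusted p = 0.00453). In glycogen metabolism, 6 of 12 were lower, led by the glycogen synthase Gys1 (-1.54) and the phosphorylase kinase subunit Phkg1 (-1.42). The one that rose was Gaa (0.69), the lysosomal enzyme that breaks down glycogen. In the pyruvate dehydrogenase complex and its regulators, 7 of 13 were lower, among them the subunit Dlat (-1.28). The 2 that rose were Pdhx (1.19), which binds the complex together, and Pdp2 (1.14), the phosphatase that switches it on.

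Genes of mitochondrial energy production fell. All 32 measured nuclear-coded subunits of complex I, which takes electrons from NADH, were lower in P3 than in P2, by -0.36 to -1.59 with a median of -0.79. Ndufb8, one of the most changed, had values of 9.14, 9.02 and 8.79 in the P2 rats and 7.40, 7.48 and 7.34 in the P3 rats. Of 32 genes of complexes III to V and cytochrome c, 29 were lower and 0 higher (median -0.67), and of 14 genes of the tricarboxylic acid cycle 12 were lower and 0 higher (median -0.62). Sdhd, which anchors succinate dehydrogenase, fell by 1.36 ± 0.07 (adjusted p = 8.49e-06). Ppargc1a, the coactivator PGC-1alpha that drives mitochondrial biogenesis, stood at 8.26, 8.41 and 8.41 in the P2 rats and 6.70, 7.19 and 6.63 in the P3 rats and fell by 1.52 ± 0.14 (adjusted p = 0.000131). Ppargc1b, its relative, fell by 1.33 ± 0.10, and Esrra, the nuclear receptor ERR alpha that works with both, by 1.00 ± 0.11. Gabpa, a factor that binds promoters of respiratory genes, rose by 0.76 ± 0.09. The half-site AGGTCA, which nuclear receptors of this kind bind and which is part of the longer ERR element TCAAGGTCA, was found on either strand in 10 of 28 promoters of complexes III to V and 8 of 30 of complex I, beside 13.3% of all measured genes' promoters. The longer element itself was in 1 of 28 and 0 of 30 of these promoters, beside 0.234% of all. The half-site was in 14.9% of promoters of genes called lower and in 10.2% of those called higher. Over all gene lists its share ran from 0 to 35.7%. Lists that moved otherwise held it too, with 13 of 56 promoters of the mitochondrial ribosome and 5 of 17 of cytosolic tRNA synthetases. These windows run from 250 bases before to 50 after the start.

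The mitochondrial ribosome did not move like the respiratory chain. Of 70 measured proteins 21 were lower, 3 higher and 46 without a call, with a median of -0.20. Mrpl41 stood apart from the others of its list, with values of 8.20, 8.44 and 8.001 in the P2 rats and 11.71, 11.55 and 11.41 in the P3 rats. The next highest member, Mrpl55, rose by 0.58 ± 0.11.

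Most proteasome genes rose. Of 33 measured subunits of the 26S proteasome, which degrades ubiquitin-tagged proteins, 29 were higher and 0 lower, with a median of 0.69 and changes from 0.10 to 1.503. Psmd11, a subunit of the regulatory particle, had values of 10.41, 10.34 and 10.39 in the P2 rats and 11.30, 11.46 and 11.61 in the P3 rats, and Psmc4, one of its ATPases, rose by 1.00 ± 0.08. Of 12 genes of the immunoproteasome and of antigen presentation 0 were higher and 3 lower, and the activator subunit Psme1 fell by 0.75 ± 0.13. Trim63 (MuRF1) and Fbxo32 (atrogin-1), the ubiquitin ligases known from muscle atrophy, were high in every fasted rat. Trim63 stood at 12.16, 12.60 and 12.25 in the P2 rats and 13.44, 13.33 and 13.49 in the P3 rats, a rise of 1.09 ± 0.13 after one of 1.49 from Fed to P2. Fbxo32 stood at 12.37, 12.28 and 12.33 in the P2 rats and 13.17, 13.19 and 13.08 in the P3 rats, a rise of 0.82 ± 0.14 after one of 2.28. In both genes every P3 rat lay above every P2 rat. Fbxo30 (MUSA1), another atrophy ligase, had values of 8.02, 8.80 and 8.72 in the P2 rats and 10.76, 10.27 and 10.63 in the P3 rats with fed rats at 8.24, 8.27 and 7.95, and rose by 2.04 ± 0.21 (adjusted p = 0.000244). Of 14 such ligases 7 were higher and 2 lower, with a median of 0.11 and changes from -0.82 to 2.04. The difference was positive for 7 of them and negative for 7. The enzymes upstream of the ligases did not rise as a group, with 5 of 29 E1 and E2 enzymes higher, 3 lower and a median of 0.06.

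Autophagy genes rose in part. Of 34 genes that form autophagosomes or carry cargo to them, 16 were higher and 4 lower (median 0.32). Gabarapl1, a ubiquitin-like protein of the autophagosome, had values of 9.80, 9.55 and 9.44 in the P2 rats and 11.49, 11.25 and 11.54 in the P3 rats and rose by 1.83 ± 0.11 (adjusted p = 1.57e-05). Map1lc3b (LC3B) rose by 1.32 ± 0.08, the starter kinase Ulk1 by 1.21 ± 0.11, the cargo receptor Nbr1 by 1.37 ± 0.10 and the mitophagy receptor Bnip3 by 1.08 ± 0.08. The members that fell included Fundc1 (-0.70), a mitophagy receptor. Lysosomal enzymes were mixed, with 5 of 33 higher and 3 lower. The protease cathepsin L, Ctsl, rose by 1.06 ± 0.09 and the cholesterol exporter Npc1 by 1.17 ± 0.18, whereas cathepsin C, Ctsc, fell by 0.80 ± 0.09. The V-ATPase, the proton pump of the lysosome, had 7 of 17 subunits higher and 0 lower, with Atp6v1h (1.66) and Atp6ap2 (1.33) ahead. Capn3, the muscle calpain, fell by 1.55 ± 0.13, and Capn2, a calpain of all tissues, rose by 0.48 ± 0.09.

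Of 17 factors that control or aid proteolysis 11 were higher and 1 lower (median 0.63). Foxo1 and Foxo3, which switch on atrophy ligases and autophagy genes, rose by 1.11 ± 0.15 and 1.06 ± 0.12. Ddi2, the protease that activates the proteasome gene factor NRF1, rose by 1.61 ± 0.12, and Nfe2l1, which codes that factor, by 0.49 ± 0.09 (adjusted p = 0.00444). Zfand5, which stimulates the proteasome, rose by 1.03 ± 0.08. The deubiquitinase Usp2 fell by 0.68 ± 0.12.

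**Figure D3:**
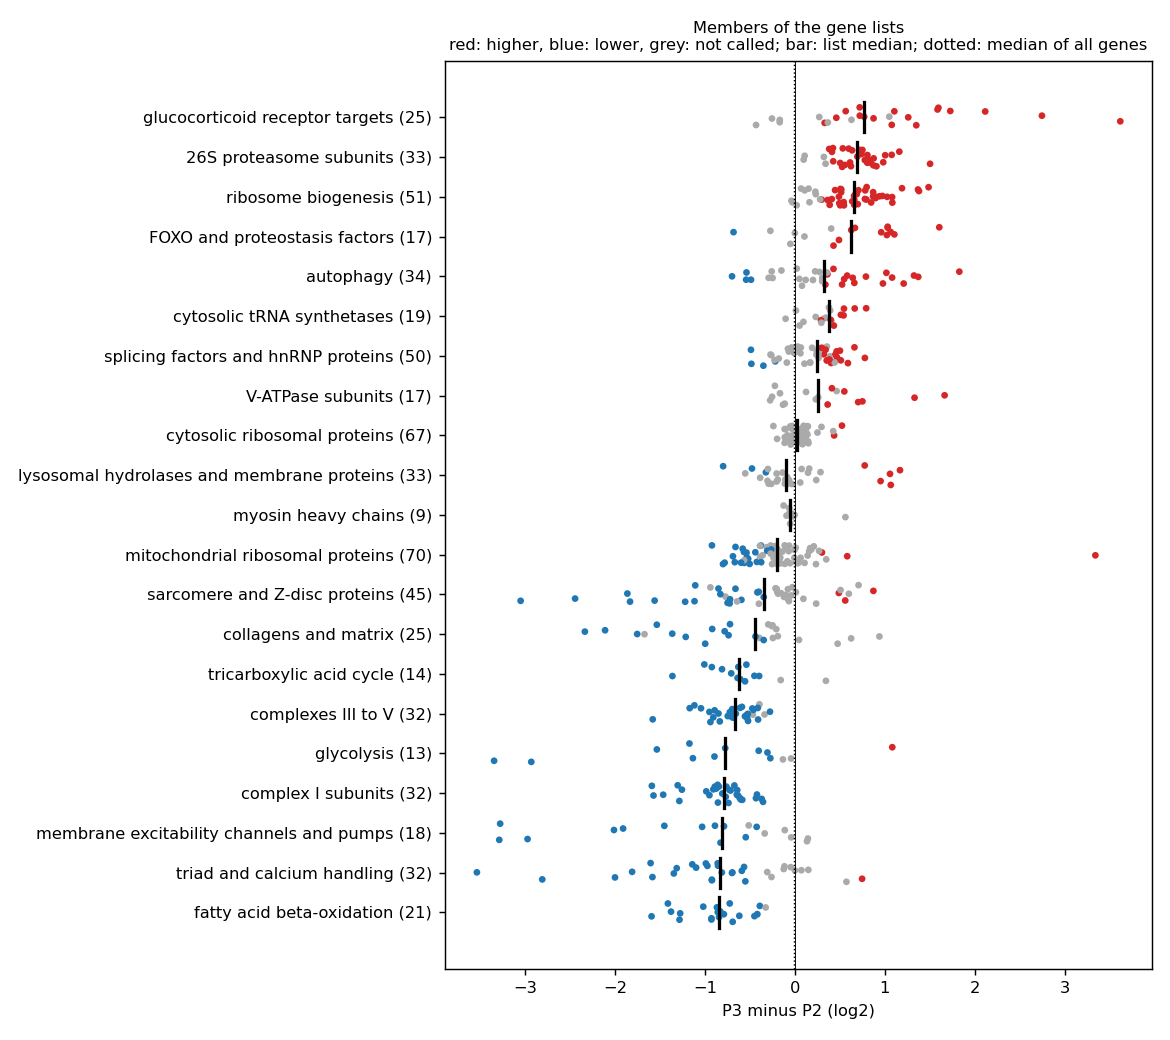
Difference between P3 and P2 on the log2 scale (x axis) for the measured members of 21 gene lists (y axis, with the number of members), 1 dot per gene, red if higher, blue if lower and grey if not called. Black bars are list medians, from 0.77 for glucocorticoid receptor targets to -0.85 for fatty acid beta-oxidation, and the dotted line is the median of all genes at -0.02.

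Genes of amino acid traffic changed one by one. Slc7a6, an exchanger of cationic and neutral amino acids, had values of 8.54, 9.22 and 8.61 in the P2 rats and 11.33, 10.79 and 11.38 in the P3 rats and rose by 2.37 ± 0.20 (adjusted p = 9.25e-05). Slc7a8, an exchanger of neutral amino acids, rose by 1.78 ± 0.19, and Slc43a2, a carrier that lets branched-chain amino acids leave or enter along their gradient, by 1.81 ± 0.10. On the other side Slc38a3, a glutamine transporter, fell by 2.10 ± 0.11 and Slc16a10, a carrier of aromatic amino acids, by 1.82 ± 0.19. In total, 3 of 24 transporters were higher and 3 lower, shares close to those over all genes. The transaminases Gpt2, Gpt and Got1 fell. Gpt2, which makes alanine from pyruvate in mitochondria, had values of 9.37, 8.72 and 9.13 in the P2 rats and 7.03, 7.60 and 6.96 in the P3 rats and fell by 1.88 ± 0.20 (adjusted p = 0.000254). Its cytosolic relative Gpt fell by 1.22 ± 0.16, and the aspartate transaminase Got1 by 1.38 ± 0.16. In the breakdown of branched-chain amino acids 6 of 18 genes were higher and 3 lower. Dbt, the core of the branched-chain ketoacid dehydrogenase, rose by 1.33 ± 0.16, and Bckdk, the kinase that inhibits this enzyme, fell by 0.75 ± 0.11. The first enzyme of the path, the transaminase Bcat2, fell by 0.63 ± 0.10.

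Ornithine, which Arg2 makes, is the start of polyamine synthesis. Of 12 genes of polyamine metabolism 5 were higher and 5 lower. Sat1, which acetylates spermidine and spermine for export, had values of 7.84, 8.02 and 8.13 in the P2 rats and 10.31, 10.23 and 10.23 in the P3 rats, in 2 tight groups. Odc1, the ornithine decarboxylase, rose by 0.73 ± 0.09, while Sms, the spermine synthase, fell by 0.81 ± 0.13. In purine nucleotide metabolism Ampd3 stood beside falls of Nt5c1a (-2.06), the nucleotidase that makes adenosine from AMP, and of Adsl (-0.60), an enzyme on the path from IMP back to AMP. Ampd1, the AMP deaminase that is abundant in muscle fibres, fell by 0.53 ± 0.09 (adjusted p = 0.00453).

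Targets of the glucocorticoid receptor had a median of 0.77, with 17 of 25 members higher and 0 lower. In P2 against Fed the same list already had a median of 1.34, with 19 members higher and 1 lower. The list holds Mt1 and Mt2A, whose rise was given above. Klf15, a factor that drives amino acid breakdown, had values of 7.86, 8.29 and 8.02 in the P2 rats and 9.87, 9.51 and 9.97 in the P3 rats and rose by 1.73 ± 0.18 (adjusted p = 0.000241). Errfi1, an inhibitor of EGF receptor signaling, rose by 2.12 ± 0.21, Sesn1, which restrains mTORC1 when leucine is low, by 1.60 ± 0.14, and Cdkn1a, the cell cycle inhibitor p21, by 1.59 ± 0.31. The 4 members with a negative difference were Pdk4, Rgs2, Tat and Lcn2, at -0.43, -0.26, -0.17 and -0.17. They did not pass the test, though Pdk4 did in the settings given above.

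In the insulin and IGF axis 5 of 23 genes were higher and 5 lower. Igf1r, the IGF-1 receptor, had values of 8.07, 8.42 and 8.42 in the P2 rats and 10.48, 10.29 and 10.33 in the P3 rats and rose by 2.06 ± 0.11 (adjusted p = 7.59e-06), and Insr, the insulin receptor, rose by 0.63 ± 0.09. The adaptor Grb14, which dampens insulin receptor signaling, fell by 1.18 ± 0.14. Igfbp3, a carrier of IGF in the circulation, rose by 1.88 ± 0.18, while Igfbp5 and Igfbp6 fell by 0.88 ± 0.12 and 0.96 ± 0.20. Among 27 regulators and effectors of mTORC1, the kinase complex that starts protein synthesis, 9 were higher and 3 lower. Eif4ebp1, the translation repressor that mTORC1 inactivates, rose by 1.08 ± 0.10, and Rragd, a GTPase that brings mTORC1 to the lysosome, fell by 1.53 ± 0.15. Of 20 genes of myostatin, activin and TGF-beta signaling, 3 were higher and 4 lower. Besides Mstn, the growth factor Tgfb3 fell by 1.04 ± 0.15, and Tgfbr1, a receptor that myostatin shares with TGF-beta, rose by 0.71 ± 0.12.

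Genes that build ribosomes rose together. Of 51 measured factors of ribosome biogenesis, which make and trim ribosomal RNA in the nucleolus, 41 were higher and 0 lower (median 0.66). Tsr1, which matures the small subunit, had values of 9.33, 9.36 and 9.41 in the P2 rats and 10.75, 10.93 and 10.88 in the P3 rats and rose by 1.49 ± 0.07 (adjusted p = 5.22e-06). Mphosph10 rose by 1.38 ± 0.09, and Polr1e, a subunit of RNA polymerase I, by 1.37 ± 0.12. The ribosomal proteins themselves moved little: 2 of 67 were higher and 0 lower, and the median was 0.02. Of 40 translation factors 15 were higher and 2 lower, with Eif1a (1.26) ahead and Eif4e (-0.57), the cap-binding protein, among the falls. Among 19 cytosolic tRNA synthetases 8 were higher and 0 lower, the highest being Eprs1 (0.79). Of 50 splicing factors 15 were higher and 4 lower.

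The promoters of both groups are shown because members of both lists rose together, and the shares of promoters with a match are given beside those of all promoters. The E-box CACGTG reads the same on both strands and is bound by MYC and by TFEB-like factors. It was found in 13 of 48 promoters of ribosome biogenesis genes (27.1%). Of those genes 11 were higher, beside 41 of all 51 measured genes of the list. The E-box was in 7.88% of all 11950 measured promoters, in 13.6% of those of genes called higher and in 9.25% of those called lower. Over all gene lists its share ran from 0 to 29.4%. Cytosolic tRNA synthetases held it in 5 of 17 promoters, with 1 of these genes higher. Amino acid transporters held it in 5 of 21, with 0 higher. The core TGATGNAA of the element bound by ATF4, searched on both strands, was in 7 of 17 promoters of cytosolic tRNA synthetases. Of those 7 genes 4 were higher. The core was in 2.98% of all measured promoters, in 2.41% of those of genes called higher and in 2.21% of those called lower. Among ATF4 and stress-induced genes it was in 6 of 22 promoters, and 1 of those genes was higher. In the stretches before the start given here from RefSeq (GRCr8, 5′ to 3′ on the gene's strand), capitals mark the match. The E-box genes are the 3 with the largest rises that hold it before the start, Ltv1 at chr1:9398586-9398645, Ddx18 at chr13:35295973-35296012 and Utp18 at chr10:79335815-79335874, all on the minus strand.
Ltv1: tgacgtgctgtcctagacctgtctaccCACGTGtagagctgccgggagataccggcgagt
Ddx18: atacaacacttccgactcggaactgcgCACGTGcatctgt
Utp18: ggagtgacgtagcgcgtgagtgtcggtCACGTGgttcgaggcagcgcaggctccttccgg
The synthetases are Tars1 at chr2:62114803-62114856 and Mars1 at chr7:65023754-65023797, also on the minus strand, and both carry the core on the opposite strand. They are 2 of the 4 synthetases with a match that rose. Nars1, another of them, rose by 0.54 ± 0.10 and is named only.
Tars1: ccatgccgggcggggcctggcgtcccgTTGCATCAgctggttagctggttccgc
Mars1: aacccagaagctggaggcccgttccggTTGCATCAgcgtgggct
Ltv1 rose by 0.87 ± 0.17, Ddx18 by 0.78 ± 0.10, Utp18 by 0.66 ± 0.07, Tars1 by 0.51 ± 0.08 and Mars1 by 0.40 ± 0.07. In all, 8 motifs were searched on both strands, and the matches were not tested. The FOXO site TGTTTAC was in 0 of 29 proteasome promoters, 0 of 28 autophagy promoters, 0 of 15 promoters of proteostasis factors and 2 of 11 of atrophy ligases, beside 2.86% of all measured promoters. The half-site TGTTCT of the glucocorticoid receptor was in 0 of 21 promoters of its targets, beside 15.4% of all, and CCAAT, a box of many promoters, was in 38.4% of all. No match says only that these letters are not in these windows.

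Genes that couple the nerve signal to contraction fell. Of 32 genes of the triad, where the membrane tubules meet the calcium store, and of calcium handling, 22 were lower and 1 higher (median -0.84). Jph2, the junctophilin that holds the membranes of the triad together, had values of 10.43, 10.15 and 10.75 in the P2 rats and 7.70, 7.66 and 7.52 in the P3 rats and fell by 2.81 ± 0.13 (adjusted p = 5.42e-06). Stac3, which the calcium channel needs for its function, fell by 1.81 ± 0.09, the channel subunit Cacnb1 by 1.61 ± 0.13, Jph1 by 1.59 ± 0.12 and the calcium buffer Pvalb by 1.35 ± 0.11. The release channel Ryr1 differed by -0.26 ± 0.11 (adjusted p = 0.17, and 0.0376 without P3 2), and the calcium pump Atp2a1 by -0.05 ± 0.06 (adjusted p = 0.695), at values above 13 in all 6 rats. The member that rose was Rcan1 (0.75), an inhibitor of calcineurin.

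Of 18 channels, pumps and carriers of the fibre membrane 12 were lower and 0 higher (median -0.81). Besides Clcn1, Slc16a3 and Car14, the sodium pump subunits Atp1b1 and Atp1b2 fell by 2.02 ± 0.23 and 1.91 ± 0.16 and the potassium channel Kcnj11 by 1.45 ± 0.23. At the neuromuscular junction 1 of 19 genes was higher and 7 lower. Ache, the acetylcholinesterase, fell by 2.28 ± 0.10 and Dok7, an activator of the kinase MuSK, by 1.47 ± 0.17. Musk itself rose by 0.63 ± 0.10. Of 15 genes of the dystrophin complex 2 were higher and 5 lower. Sgcd, a sarcoglycan, fell by 2.71 ± 0.11 and Cav3, the muscle caveolin, by 1.48 ± 0.21.

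Among the contractile proteins, none of 9 myosin heavy chains passed limma's test or the Tukey test of the methods, with differences between -0.13 and 0.56, and 1 had an unadjusted p under 0.05. For members near the top of the scale a change can be understated. The median level of the list in each rat lay lower, at 8.36 to 9.04 in P2 and 8.83 to 9.51 in P3. Of 45 proteins of the sarcomere and Z-disc 18 were lower and 3 higher (median -0.35). After Ky, the largest falls were those of Mybph (-2.45), a myosin-binding protein, Ldb3 (-1.87), a Z-disc scaffold, Smyd1 (-1.84), a methyltransferase that helps to assemble myosin, and Tmod4 (-1.56), which caps thin filaments. Lmod2, which lengthens thin filaments, rose by 0.87 ± 0.14.

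Matrix genes fell, and so did a part of the markers of fibro-adipogenic, tendon and satellite cells. Of 25 genes of collagens and matrix 13 were lower and 0 higher (median -0.44). Fn1, fibronectin, had values of 8.38, 9.02 and 8.94 in the P2 rats and 7.90, 7.26 and 7.53 in the P3 rats. The fall of 1.22 ± 0.21 (adjusted p = 0.00379) followed one of 1.05 from Fed to P2. Col1a1, the main collagen of connective tissue, stood at 10.005, 11.69 and 10.16 in the P2 rats and 9.56, 7.77 and 7.50 in the P3 rats and fell by 2.34 ± 0.57 (adjusted p = 0.0216). The rats of each group differed widely, and the call was lost without P2 2, P3 2 or P3 3 (adjusted p = 0.0553, 0.0822 and 0.0829). Fibro-adipogenic cells, which make most of the matrix, had 6 of 12 markers lower and none higher. Their summed linear intensity was 9384 to 15320 in P2 and 6859 to 9693 in P3. All 5 tendon markers were lower, with sums of 861 to 1254 in P2 and 371 to 393 in P3, and the defining tendon marker Tnmd fell by 1.96 ± 0.23. Several markers of both cell types, Col1a1 among them, code matrix proteins themselves, so their fall is not separate from that of the matrix genes. The part of these cells in the fall of the matrix genes was not tested. Among satellite cell markers 4 of 8 were lower, among endothelial markers 1 of 10 and among pericyte markers 2 of 8. No marker of neutrophils, lymphocytes, Schwann cells or red blood cells passed limma's test or the Tukey test, and 1 Schwann cell marker, lower in P3, had an unadjusted p under 0.05.

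**Figure D4:**
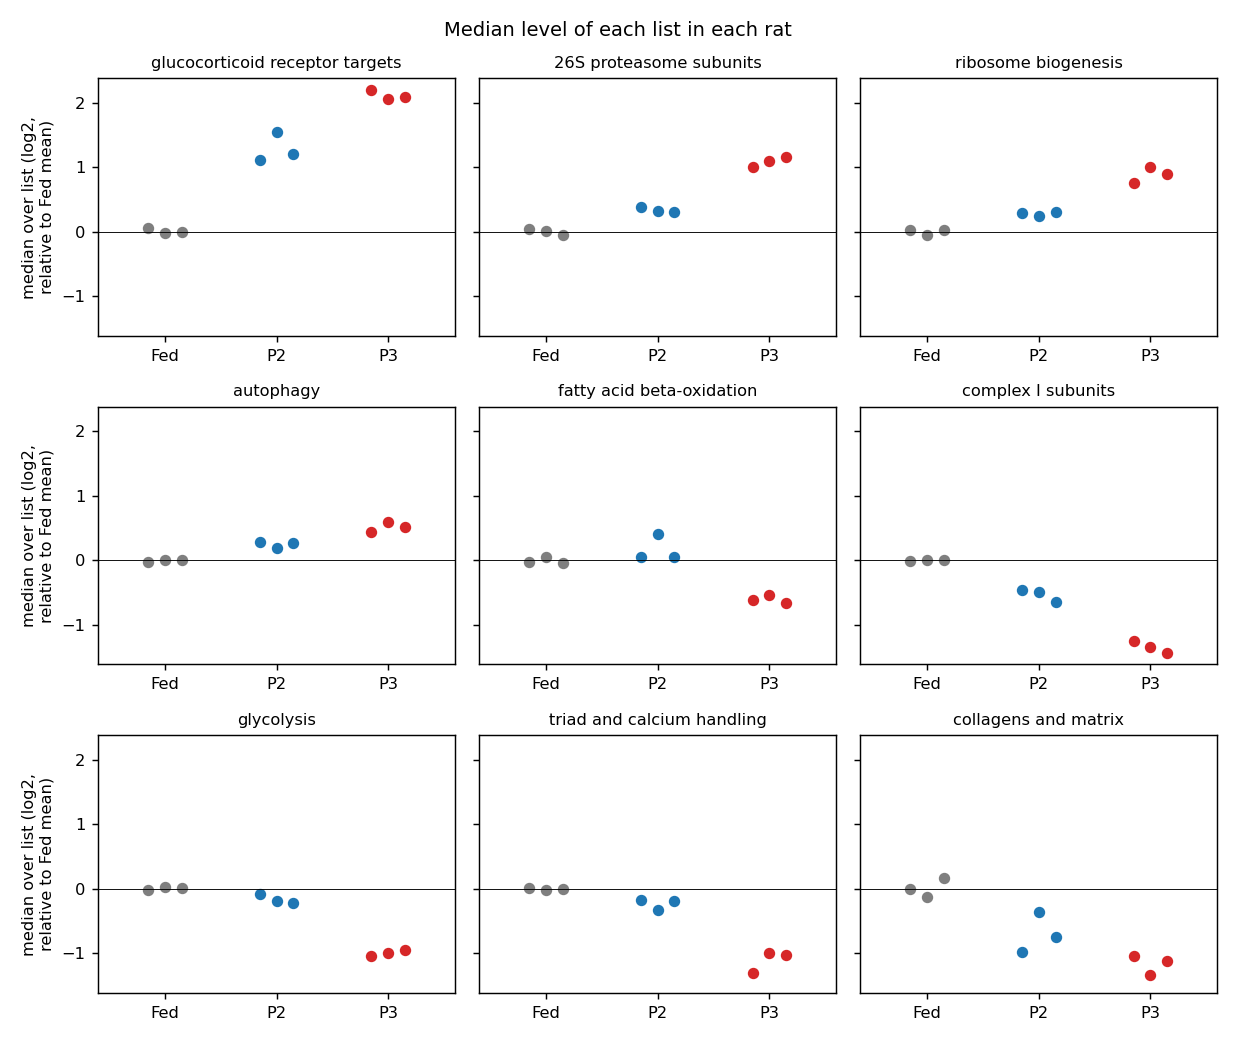
Median over the members of 9 gene lists in each rat, as the difference from the mean of the fed rats on the log2 scale (y axis), in Fed, P2 and P3 (x axis), with 1 dot per rat. Complex I subunits lie between -0.65 and -0.45 in P2 and between -1.43 and -1.26 in P3, while collagens and matrix genes of P2 1, at -0.98, lie close to the P3 rats.

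In the list of 42 antioxidant and glutathione genes 13 were higher and 12 lower. Nfe2l2, which codes the oxidative stress factor NRF2, rose by 1.03 ± 0.10. Gclm, of the enzyme that starts glutathione synthesis, had values of 8.06, 8.05 and 8.19 in the P2 rats and 9.76, 9.81 and 9.80 in the P3 rats with hardly any spread and rose by 1.69 ± 0.07 (adjusted p = 2.40e-06). Gsr, the glutathione reductase, rose by 1.51 ± 0.10, Txnrd1, the cytosolic thioredoxin reductase, by 1.09 ± 0.13, and the small MAF protein Mafk, a partner of NRF2, by 1.56 ± 0.11. The falls included the extracellular superoxide dismutase Sod3 (-1.78), the peroxidase Gpx1 (-0.97), and the mitochondrial enzymes Prdx3 (-0.61) and Txnrd2 (-0.55). Of 26 heat shock proteins and chaperones 3 were higher and 8 lower. The small heat shock proteins Hspb2 and Hspb3 fell by 1.35 ± 0.15 and 1.48 ± 0.24, and Hspb7 rose by 1.19 ± 0.23. Of 18 genes of iron and heme 3 were higher and 4 lower. The ferritin chain Ftl1 rose by 1.09 ± 0.12 and the transferrin receptor Tfrc fell by 1.505 ± 0.14. Of 24 ATF4 and stress-induced genes 9 were higher and 2 lower. The rises included Gadd45a (1.72), Gadd45b (1.91) and Cth (1.82), which makes cysteine, whereas Atf3 and Trib3, both often used as marks of ATF4 activity, differed by 0.24 and 0.12 and did not pass the test.

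Some genes turned back. A probe set reverses here if P2 differs from Fed and P3 differs from P2 in the opposite direction, each at an adjusted p under 0.05. In P2 versus Fed 1500 probe sets were higher (5.13%) and 1211 lower (4.15%). Of all 29215 probe sets 121 (0.414%) were higher in P2 and then lower in P3, and 45 (0.154%) lower and then higher, or 89 and 36 genes. Both steps use the same 3 P2 rats, so a deviation of these rats enters both with opposite signs. The 121 became 194 without P2 1, the rat that stood apart, whereas leaving out Fed 1, Fed 2 or Fed 3 lowered the 45 to 29, 29 and 23. For the 89 genes the median step up was 0.78 and the median step down -0.80. In P3, 65 of them showed no call against Fed, 8 were still above it and 16 below it.

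Genes of fat use and storage were among those that rose and then fell: 4 of the 21 beta-oxidation genes, 4 of the 17 PPAR-responsive genes and 2 of the 12 genes of lipid droplets and lipolysis did so. None of the measured genes of complex I or the proteasome reversed in either direction, and 1 of the 70 of the mitochondrial ribosome did, mrpl24, which went down by 0.76 from Fed to P2 and up by 0.30 ± 0.07 from P2 to P3. This gene lost its call without P2 rat 1, P3 rat 2 or P3 rat 3 (adjusted p = 0.0618, 0.0745 and 0.0608) and after quantile normalization once more (adjusted p = 0.0637). Angptl4 had log2 intensities of 5.15, 5.16 and 4.997 in the fed rats, 7.50, 8.31 and 8.20 in the P2 rats and 5.28, 5.29 and 5.34 in the P3 rats. The P3 rats lay just above the fed rats, after a step up of 2.90 and a step down of 2.70 ± 0.18. Ucp3, the uncoupling protein of muscle mitochondria, stood at 8.92, 9.51 and 10.35 in Fed, 11.87, 11.63 and 12.01 in the P2 rats and 7.92, 9.18 and 8.77 in the P3 rats. The fed rats differed more among themselves than the P2 rats did, and the P3 rats overlapped the lower fed rats. Crot, which hands over fatty acids shortened in peroxisomes, was at 8.29, 8.30 and 8.30 in Fed, 9.59, 9.59 and 9.84 in the P2 rats and 7.51, 7.51 and 7.45 in the P3 rats. It stepped up by 1.38 and down by 2.19 ± 0.08, and ended below Fed by 0.81 (adjusted p = 7.53e-05). Mlycd, the malonyl-CoA decarboxylase that unlocks fatty acid entry into mitochondria, went up by 0.94 and down by 1.16 ± 0.16, Cpt1a, the liver-type carnitine palmitoyltransferase, by 1.08 and 0.86 ± 0.18, and Retsat, a retinol saturase of fat cells, by 1.58 and 1.81 ± 0.27. Mc5r, a melanocortin receptor, rose by 3.00 and fell by 2.24 ± 0.16, staying above Fed by 0.76 (adjusted p = 0.00552). Outside lipid metabolism Phlda3, an inhibitor of AKT, went up by 1.68 and down by 1.73 ± 0.17, the corepressor Tle1 by 1.38 and 1.83 ± 0.15, the MAP kinase phosphatase Dusp7 by 1.21 and 1.09 ± 0.13, Rhobtb1 by 1.84 and 1.17 ± 0.15, and the cytokine gene Il15 by 1.27 and 0.95 ± 0.12. The matrix proteoglycans Chad and Prelp went up by 1.09 and 1.17 and down by 1.70 ± 0.18 and 1.17 ± 0.22. Of the 25 genes of collagens and matrix 9 were lower and 2 higher in P2 than in Fed.

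Fat cell markers were among the reversing genes too. Adipoq, adiponectin, which fat cells secrete, was at 5.13, 5.40 and 5.64 in Fed, 7.86, 6.63 and 6.95 in the P2 rats and 5.27, 5.79 and 6.09 in the P3 rats. P2 1 was the highest, and without P3 1 the fall from P2 to P3 of 1.43 ± 0.32 (adjusted p = 0.014) lost its call (adjusted p = 0.0518). Lipe stepped up by 0.98 and down by 1.32 ± 0.09, and Fabp4, the fatty acid binding protein of fat and endothelial cells, by 0.69 and 1.15 ± 0.13. Of 9 adipocyte markers 4 were higher in P2 than in Fed, and 4 of these fell again in P3. Lipe is also one of the genes of lipid droplets and lipolysis counted above, so these counts are not separate. The summed linear intensity of the 9 adipocyte markers was 1328 to 1450 in Fed, 2256 to 2492 in P2 and 1011 to 1259 in P3. The part of fat cells in the reversing genes was not tested.

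The genes that fell and then rose were fewer and their steps smaller, with a median of -0.50 down and 0.61 up. Odc1 was at 9.58, 9.64 and 9.47 in Fed, 8.61, 8.66 and 8.81 in the P2 rats and 9.31, 9.56 and 9.40 in the P3 rats, and the P3 rats came back to the level of the fed rats. Rcan1 stepped down by 1.73 and up by 0.75 ± 0.14, and stayed below Fed by 0.99. Slc43a2 stood at 7.94, 8.01 and 8.06 in Fed, 7.44, 7.27 and 7.20 in the P2 rats and 9.28, 8.93 and 9.13 in the P3 rats. It went past the fed level in P3, by 1.11 (adjusted p = 4.43e-05). Pdhx went down by 0.73 and up by 1.19 ± 0.10, and Trib1, a pseudokinase that guides a ubiquitin ligase, down by 0.77 and up by 1.36 ± 0.17. Socs2, a brake on growth hormone signaling, went down by 0.76 and up by 0.76 ± 0.16, Akap6, an anchor of protein kinase A, down by 0.80 and up by 0.85 ± 0.15, Esm1, a proteoglycan of endothelial cells, down by 0.98 and up by 1.36 ± 0.22, and Ackr3, a scavenger receptor of chemokines, down by 0.65 and up by 0.60 ± 0.09. The remaining leading genes were Mmp15 (1.00), Phtf2 (0.67) and Ssr2 (0.59), each with its step from P2 to P3.

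**Figure D5:**
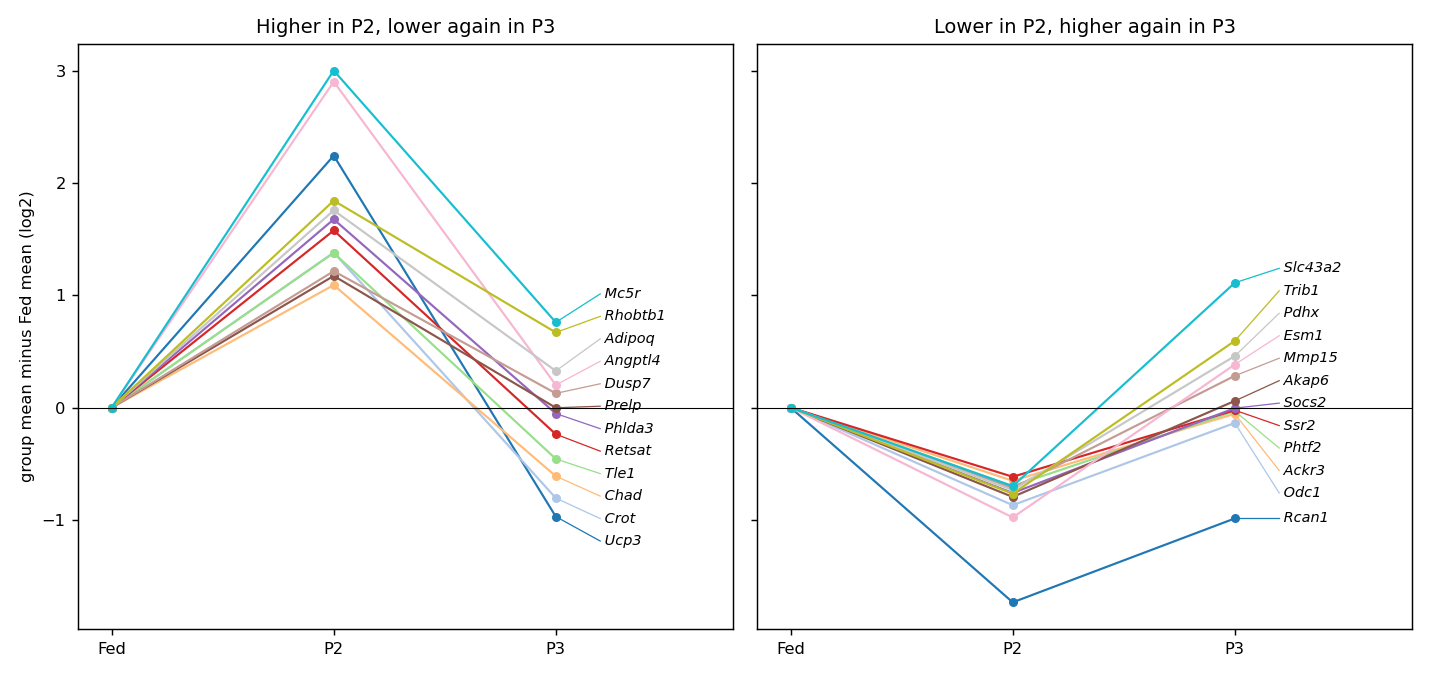
Group means of Fed, P2 and P3 (x axis) as the difference from the Fed mean on the log2 scale (y axis), with 3 rats per group, for the 12 genes per direction with the largest smaller step. Mc5r and Angptl4 reach 3.00 and 2.90 in P2, and Slc43a2 ends at 1.11 in P3.

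Full reversals, where P3 also passed the test on the other side of Fed, numbered 21 probe sets from above to below and 10 from below to above, or 16 and 8 genes. Without P2 1 the first count was 34, and without Fed 1, Fed 2 and Fed 3 it was 11, 13 and 12. The second was 3 without Fed 2 and 4 without Fed 3. Mpp3, a scaffold protein, was at 6.83, 7.18 and 7.06 in Fed, 7.33, 8.39 and 7.98 in the P2 rats and 5.76, 5.76 and 5.57 in the P3 rats. It was above Fed by 0.88 in P2 (adjusted p = 0.0453) and below by 1.33 in P3 (adjusted p = 0.00197), and P2 1 lay closest to the fed rats. Klf10, a factor induced by TGF-beta, was above Fed by 0.91 and then below by 0.78, Ptprs, a receptor tyrosine phosphatase, above by 0.70 and below by 0.80, and Slc25a42, the mitochondrial carrier of coenzyme A, above by 0.52 and below by 0.71. Asb4, a subunit of ubiquitin ligases, was at 7.17, 7.16 and 7.30 in Fed, 8.04, 8.21 and 8.04 in the P2 rats and 6.62, 6.63 and 6.68 in the P3 rats. These are 3 separate groups with little spread. Uckl1, a uridine kinase-like protein, was above by 0.58 and below by 0.66.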

How the data were processed

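RNA of TIB from 3 rats per group was hybridised to Affymetrix Rat Gene 1.0 ST arrays. The authors normalized the arrays with the sketch quantile method, summarized probe sets by RMA (Expression Console 1.1) and deposited log2 values, which were used as given for 29215 probe sets. Scanner files were not used here. RMA compresses changes of dim and very bright probe sets, and quantile methods assume like distributions.

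A linear model with a mean for each of the 3 groups was fitted with limma 3.58.1 in R 4.3.3 over 9 arrays, with empirical Bayes moderation and Benjamini-Hochberg adjustment over all probe sets. A call is an adjusted p under 0.05, and values after ± are moderated standard errors unless SD is named. The scripts were tested on simulated data. Of the probe sets 15310 had 1 gene symbol, 323 several and 13582 none. For a gene with several, the brightest over all arrays stood for it. Promoters come from RefSeq (GRCr8) and matched 11950 of 14506 genes.

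A rule picked the 15 genes per direction that changed most, if called, free of overlap and with a higher group mean of at least 6. It also picked the 12 per direction of reversal with the largest smaller step and the 10 such full reversals. In each gene list it picked the defining members and the 4 most changed calls. The rule gave 440 genes, and the text names only a part of them. Which of the list members are named followed no further rule. The genes Adsl, Atp1b2, Cacnb1, Cpt1a, Ctsc, Ddx18, Fabp4, Fundc1, Gaa, Igfbp6, Kcnj11, Lcn2, Lmod2, Ltv1, Mlycd, Mrpl55, Mtf1, Pgk1, Prdx3, Rgs2, Slc30a4, Slc7a8, Tat, Tmod4, Tnmd, Txnrd2, Usp2 and Utp18 fall outside that rule and were chosen after their values were seen. Members, gene lists and motifs were chosen with earlier results of these data known, so lists are described by counts and medians without a test. Alternatives were other thresholds, the methods' Tukey test at a p under 0.001, other scalings, filters, moderation, a replicate block and leaving out each array.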

Additional observations from a re-analysis of the deposited data

How the results depend on the processing

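Between P2 and P3, 2483 probe sets higher and 2197 lower became 785 and 634 under the methods' analysis of variance and Tukey test, and 1557 and 1259 at an adjusted p under 0.01. The 480 higher by at least 2-fold became 316 under the Tukey test. Reversals depended most on the threshold. The 121 and 45 reversing probe sets became 16 and 5 under the Tukey test and 48 and 13 at the stricter threshold, and the 21 and 10 full reversals became 4 and 1, and 5 and 2. Without 1 rat at a time the counts ranged from 1964 to 2347 higher, 1633 to 2105 lower, 86 to 194 and 23 to 60 reversing, and 11 to 34 and 3 to 13 fully reversing. With the replicate number as a replicate block, 2155 were higher, 1880 lower, 103 and 32 reversed, and 18 and 6 fully reversed. The labels do not say what a shared number stands for. Deviations from the group means correlated at -0.24, -0.18 and -0.06 for same-numbered P2 and P3 rats. For rats with different numbers the values ran from -0.15 to 0.31. Deviations from a mean of 3 rats depend on each other, so these values cannot decide whether the numbers pair the rats. Fitting only the 6 fasted rats gave 2039 higher and 1728 lower, array medians subtracted 2770 and 1929, quantile normalization once more 2387 and 2211, probe sets with a mean of at least 5 gave 2579 and 2348, probe sets with 1 symbol 1911 and 1818, and an intensity trend with robust moderation 2426 and 2130. Of the 222 genes named, 66 lost their call under the Tukey test and 9 at the stricter threshold, and under the other settings only those whose values are given beside them changed their call, with Adipoq and Col1a1 losing it when only the 6 fasted rats were fitted (adjusted p = 0.0505 and 0.0806). None changed direction. The scaling alternative for list medians was chosen after seeing the data, and the median of all genes was -0.01 and 0.02 under the scalings, beside -0.02. The 3 rats per group limit the precision, and arrays compress change near both ends of the intensity scale.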

Other observations

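Among genes not described so far, sterol regulation moved at a few points. Of 17 genes of cholesterol synthesis 5 were higher and 1 lower in P3 than in P2. Insig1, which holds back the sterol factor SREBP, had log2 intensities of 10.29, 10.34 and 10.11 in the P2 rats and 12.17, 12.37 and 12.32 in the P3 rats, without overlap. It rose by 2.04 ± 0.11, and Lss, which closes the sterol rings, by 1.57 ± 0.11 (limma, adjusted p = 9.46e-06 and 3.62e-05). Of 12 genes of fatty acid and triglyceride synthesis 1 was higher and 2 lower. Thrsp, a protein of lipogenic tissues, rose by 2.30 ± 0.28, and Gpam, the first enzyme of glycerolipid synthesis, fell by 1.55 ± 0.23. In ketone body use 2 of 4 genes were higher and 1 lower, and Slc16a1, a carrier of lactate and ketone bodies, rose by 0.95 ± 0.15.

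Vegfa, the main growth factor of blood vessels, had log2 intensities of 9.18, 10.02 and 9.65 in the P2 rats and 7.21, 6.78 and 6.91 in the P3 rats. All P3 rats lay below all P2 rats, and the fall was 2.65 ± 0.19 (limma, adjusted p = 3.98e-05). Fgf2, another growth factor, fell by 1.61 ± 0.16. Of 19 genes of NF-kappaB and TNF receptors 5 were higher and 0 lower, led by the death receptor Tnfrsf21 (2.49) and the kinase Map3k14 (1.08), which starts the alternative NF-kappaB path. Of 27 interferon-induced genes 0 were higher and 3 lower. The clock genes were mixed, with 4 of 15 higher and 2 lower, among the latter the repressor Bhlhe40 (-1.29). All rats of the study were killed late in the morning, per its methods. Of the factors that form muscle, Sik1, a kinase that frees MEF2 from its repressors, rose by 1.88 ± 0.22, and Myf6, the myogenic factor of adult fibres, fell by 0.74 ± 0.14.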
